A study of Homo sapiens with 8 samples.

Results

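DNA replication depends on a set of proteins that license origins, unwind and copy DNA, and rebuild chromatin behind the fork. The 55 genes described here encode that machinery and were taken by symbol from a list: 9 for licensing, 7 for the MCM helicase family, 8 for origin firing, 11 for polymerases and primase, 6 for the clamp and its loader, 3 for single-strand binding, 4 for Okazaki fragments, 5 for fork protection and 2 for chromatin assembly. All 55 are among the 26443 genes with values in the table, and all 55 averaged at least 1 FPKM (a gene's fragments per kilobase of its length, divided by library size), so none was lost among the 11874 genes tested. The cells were C4-2B, a castration-resistant prostate cancer line of the LNCaP lineage grown in medium with serum. They were treated for 7 days with ENZ at 10 uM, with EPZ6438 (EPZ) at 1 uM, with both agents together (Combination), or with DMSO, the vehicle. ENZ is the usual short name of enzalutamide, an antiandrogen drug, and EPZ6438, or tazemetostat, blocks the catalytic activity of the histone methyltransferase EZH2. The labels give no separate doses for the Combination. Each group held 2 libraries of 1 cell line, and nothing in the labels tells whether the pair came from separate cultures; the p-values therefore reflect the spread of libraries alone, which may be technical.

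Origins are licensed in G1, when the origin recognition complex (ORC), CDC6 and CDT1 load the MCM2 to MCM7 ring onto DNA. In S phase the kinase pair CDC7 and DBF4, together with cyclin-dependent kinases, turns the ring into the active CMG helicase by adding CDC45 and the GINS complex. Polymerase alpha with primase starts each strand, polymerases epsilon and delta extend them behind the sliding clamp PCNA, and E2F factors are known to drive many of these genes as cells enter S phase. The comparisons ask what each agent, and the pair of agents, did to the RNA level of each step in the same cells.

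Libraries held an estimated 15700000 to 24800000 fragments, read from the steps between low FPKM values, and for a 1-kilobase gene a single fragment equals 0.0403 to 0.0638 FPKM. Replicates correlated at r = 0.992 to 0.996 across the tested genes, which are not independent replicates. Their median absolute log2 difference was 0.119 between the ENZ libraries, above the 0.064 to 0.074 of the other groups. The labelled cell type matched its markers: KLK3, TMPRSS2, HOXB13, KRT8, KRT18 and EPCAM were at 19.7 FPKM or more in every library. Of 12 fibroblast, immune and endothelial markers, COL1A2 and CD3E were at 0 in all libraries, and COL1A1 alone passed 1 FPKM, with 10.5 and 10.4 FPKM in Combination against 2.43 and 2.24 FPKM in DMSO; its part in the results was not tested. Among checks on the drugs, the prostate antigen gene KLK3 fell by 2.15 on the log2(FPKM + 1) scale in ENZ against DMSO (limma adjusted p = 2.56e-09). Against DMSO, KLK3 also changed by 1.49 in EPZ (adjusted p = 5.41e-08) and by -1.35 in Combination (adjusted p = 4.45e-09). KLK3 was thus higher with EPZ alone, and it was less lowered in Combination than in ENZ (0.80 for Combination against ENZ, adjusted p = 3.18e-07). EZH2 RNA, which does not report the activity that EPZ inhibits, was at 16.1 and 14.7 FPKM in EPZ against 26.2 and 25.4 FPKM in DMSO.

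The promoters of 4 members are shown because their genes mark the ends of the results below: CDT1, ORC1 and MCM10 were among the members with the largest losses in Combination, and POLE did not pass the test there. Each line gives the 250 bases before the RefSeq gene start, 5′ to 3′ on the gene's strand, from RefSeq on GRCh38.p14. The windows lie at chr16:88803539-88803788 on the plus strand for CDT1, chr1:52404424-52404673 on the minus strand for ORC1, chr12:132687343-132687592 on the minus strand for POLE and chr10:13161308-13161557 on the plus strand for MCM10. Capitals mark the letters TTNNCGC, with C or G at each N, on either strand; these letters resemble the textbook E2F site.
CDT1: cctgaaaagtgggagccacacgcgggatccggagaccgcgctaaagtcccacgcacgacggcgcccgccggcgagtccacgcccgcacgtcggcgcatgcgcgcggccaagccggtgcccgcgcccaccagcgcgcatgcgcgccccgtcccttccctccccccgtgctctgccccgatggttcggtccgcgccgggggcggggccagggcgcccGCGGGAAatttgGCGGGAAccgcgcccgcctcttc
ORC1: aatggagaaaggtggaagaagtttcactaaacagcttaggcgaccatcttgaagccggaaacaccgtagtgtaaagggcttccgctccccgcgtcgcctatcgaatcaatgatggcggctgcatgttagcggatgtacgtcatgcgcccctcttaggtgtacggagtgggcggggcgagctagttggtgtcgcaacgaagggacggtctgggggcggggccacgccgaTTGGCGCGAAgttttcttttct
POLE: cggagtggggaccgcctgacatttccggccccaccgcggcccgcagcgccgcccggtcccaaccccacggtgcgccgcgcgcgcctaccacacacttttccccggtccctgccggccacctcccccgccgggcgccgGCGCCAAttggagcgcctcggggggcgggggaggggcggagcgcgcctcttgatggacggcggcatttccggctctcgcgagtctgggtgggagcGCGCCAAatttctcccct
MCM10: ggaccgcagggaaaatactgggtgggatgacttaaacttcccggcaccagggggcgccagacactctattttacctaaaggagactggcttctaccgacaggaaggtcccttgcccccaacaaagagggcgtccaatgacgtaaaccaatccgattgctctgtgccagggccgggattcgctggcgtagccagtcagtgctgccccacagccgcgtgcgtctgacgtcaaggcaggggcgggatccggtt
CDT1 holds matches that begin 35 and 23 bases before the start, ORC1 holds a pair at 22 and 19 bases that overlap on opposite strands, POLE holds matches at 113 and 18 bases, and MCM10 holds 0 matches. A match is a description of the letters and not a bound site, and the absence of a match says only that these letters are not in the window.

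The letters were common among the members as a whole. In RefSeq's window from 250 bases before to 50 after the start, 36 of the 48 members with an entry (75.0%) held at least 1 match, against 15.3% of all 27305 genes in the RefSeq table and 25.7% of the 8787 tested genes that have an entry. The members without the letters were ORC2, ORC4, ORC5, ORC6, MCM10, CDC45, DBF4, PRIM2, POLD1, POLD2, FEN1 and RNASEH2A. This list holds ORC4, which did not pass the test in any comparison, and also MCM10 and CDC45, the members with the largest log2 changes in Combination. The sequence CCAAT, on either strand, was in 58.3% of members, 39.7% of all genes and 43.7% of tested genes. The letters TTTNAA, with A or G at N, the core of the CHR element of mitotic promoters, were in 8.33% of members, 27.9% of all genes and 20.0% of tested genes. No RefSeq entry matched DNA2, GINS4, MCM4, MCM5, POLD3, RPA2 and RPA3.

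In Combination, 53 of 55 members fell against DMSO, none rose, and 2 did not pass the test (ORC4 and POLE). A member was called when its limma p, adjusted by Benjamini-Hochberg over all 11874 genes, was under 0.05; 47.4% of all tested genes were called lower in this comparison and 33.3% higher. The median member changed by -2.09 on the log2(FPKM + 1) scale, against -0.15 for all tested genes. By mean FPKM, 50 members were at least 2-fold lower, 35 at least 4-fold lower and 7 at least 10-fold lower than in DMSO, and the median member was at 19.8% of its DMSO level. EPZ alone lowered 51 of 55 members and raised none (32.4% of all tested genes called lower and 23.4% higher), with a median of -0.90 against -0.046 for all genes and the median member at 51.6% of DMSO. ENZ alone lowered 28 and raised 1 (28.8% of all tested genes called lower and 27.9% higher), with a median of -0.20 against 0.0049 for all genes and the median member at 86.6% of DMSO. The changes in ENZ were small, with 0 members at least 2-fold lower in ENZ, against 26 in EPZ. Both treated libraries lay below both DMSO libraries for 41 members in ENZ (38.4% of all tested genes), 54 in EPZ (46.0%) and 53 in Combination (52.7%). The comparisons with DMSO share the same DMSO libraries, and ENZ counts depended on the scaling, since 11 of 55 members were called lower after quantile normalization, against 24.8% of all tested genes there. In bulk RNA, fewer cells at the stage that expresses these genes and less RNA per cell cannot be told apart.

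**Figure D1:**
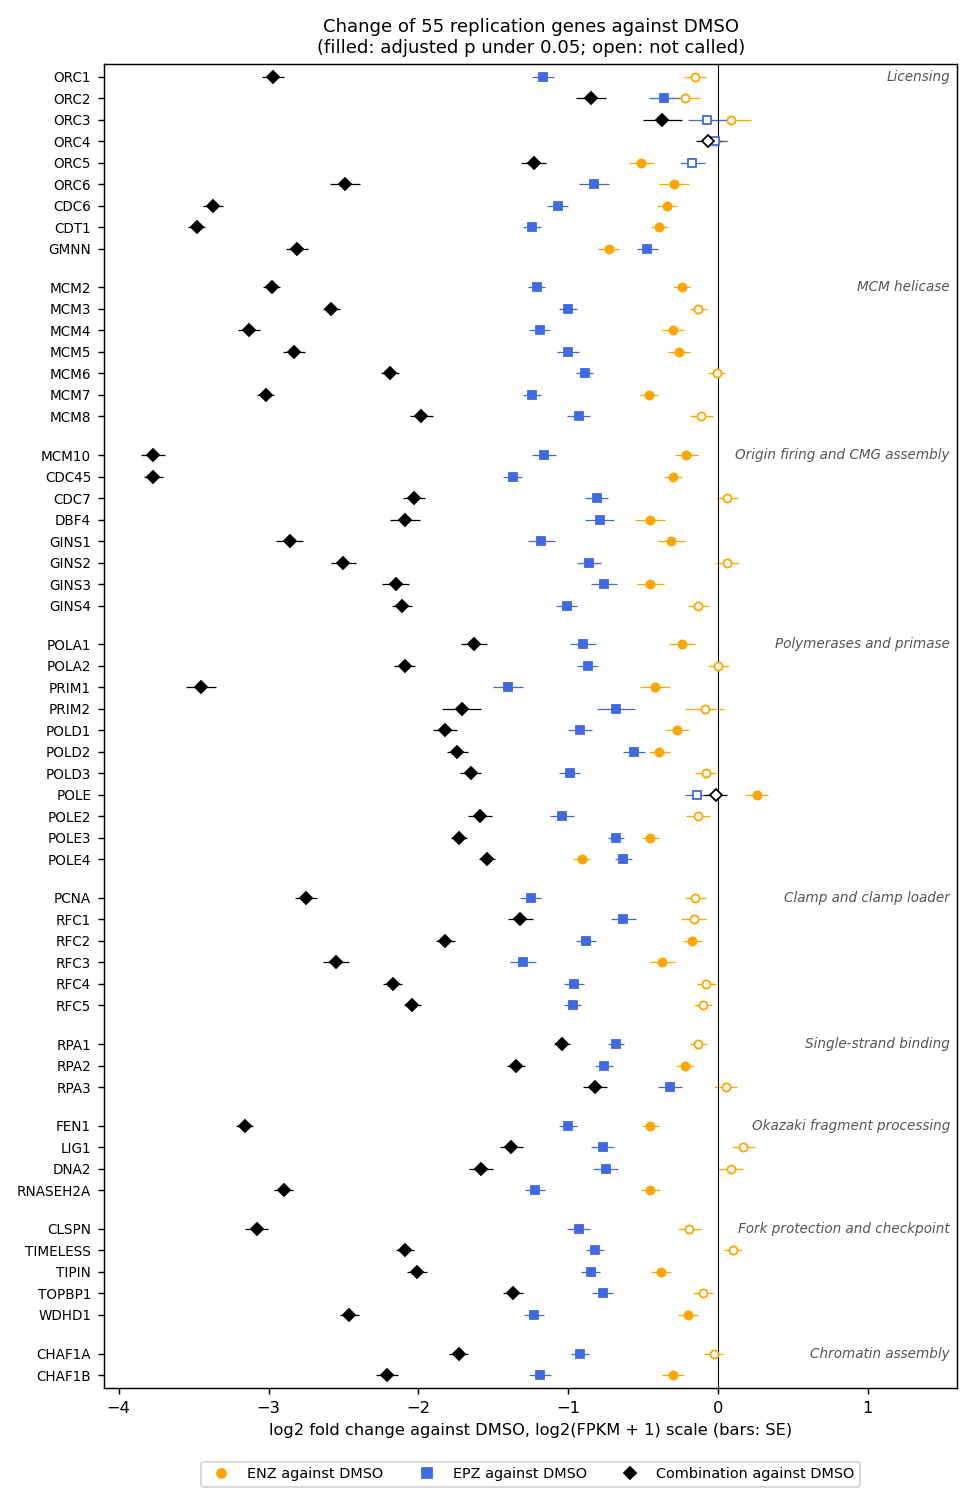
Change of each of the 55 members against DMSO on the log2(FPKM + 1) scale (horizontal axis), grouped by role from top to bottom, with bars for SE and filled symbols for calls at adjusted p under 0.05. Combination symbols lie farthest to the left for nearly all members, down to -3.77 for MCM10 and CDC45, while ORC4 and POLE stay near 0.

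The roles lost RNA to different degrees. Summed over members, the origin firing genes stood in Combination at 10.9% of their DMSO level, and the MCM family and the Okazaki fragment genes each stood at 13.1%. Licensing genes stood at 18.6%, the clamp and clamp loader at 20.1%, fork protection at 22.0% and chromatin assembly at 24.6%. Polymerases and primase kept 29.7% and the single-strand binding genes kept 45.5%. The spread between roles was narrower with single agents, from 45.2% (origin firing) to 62.5% (single-strand binding) in EPZ and from 74.7% (polymerases) to 92.7% (fork protection) in ENZ. Sums follow their most abundant members, so the genes are given one by one below.

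**Figure D2:**
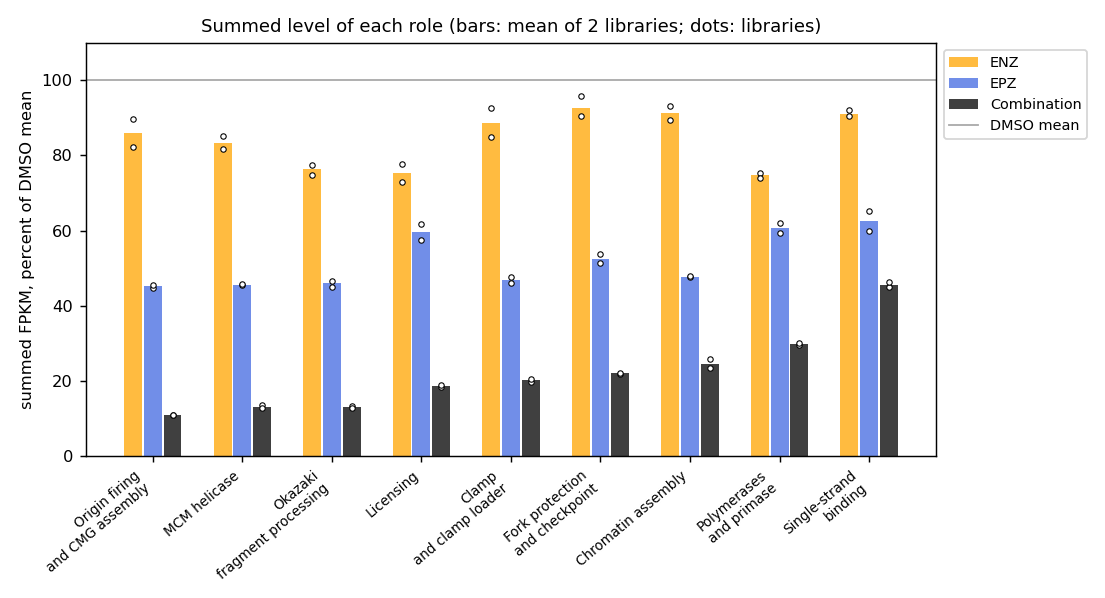
Summed FPKM of each role as a percentage of the DMSO mean, with bars for the means of ENZ, EPZ and Combination, a point for each library and a line at the DMSO level. Combination points run from 10.9% for origin firing to 45.5% for single-strand binding, and replicates lie close together.

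Licensing genes did not move together. The loading factors CDC6 and CDT1, the largest ORC subunit gene ORC1, ORC6 and GMNN lost most of their RNA in Combination, while ORC2, ORC3 and ORC4 kept 52.0%, 70.4% and 94.6% of their DMSO means. CDT1, which brings the MCM ring to ORC, was at 30.3 and 28.8 FPKM in ENZ, 15.7 and 16.1 in EPZ, 2.54 and 2.63 in Combination, and 39.0 and 38.8 in DMSO. The 4 groups did not overlap for CDT1, and its changes were -0.39 in ENZ (SE 0.058, limma adjusted p = 4.17e-04), -1.24 in EPZ (SE 0.058, adjusted p = 3.75e-07) and -3.48 in Combination (SE 0.058, adjusted p = 1.04e-10). CDC6, the ATPase that works with ORC to load the ring, was at 34.2 and 37.2 FPKM in ENZ, 20.4 and 22.0 in EPZ, 3.55 and 3.44 in Combination, and 46.9 and 44.2 in DMSO, again with no overlap between groups. ORC1, whose promoter is shown above, was at 13.9 and 14.0 FPKM in ENZ, 6.42 and 6.26 in EPZ, 1.24 and 1.0 in Combination, and 15.9 and 15.3 in DMSO. Its Combination level was 13.9-fold under DMSO (-2.97 on the log2 scale, SE 0.073, adjusted p = 6.37e-10), whereas the difference in ENZ missed the threshold (-0.15, SE 0.073, adjusted p = 0.108).

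ORC4, another ORC subunit, had 3.61 and 4.11 FPKM in ENZ, 3.67 and 4.02 in EPZ, 3.58 and 3.83 in Combination, and 3.79 and 4.04 in DMSO. All 4 groups overlapped in range, and no comparison was called (-0.064 in Combination, SE 0.084, limma adjusted p = 0.498). Differences between groups were within the spread of replicates, and the sign of the Combination value changed with the scaling (0.078 after median-of-ratios scaling). The ratio of ORC1 to ORC4, both ORC subunits and a pair chosen after the values were seen, was 3.85 and 3.4 in ENZ, 1.75 and 1.56 in EPZ, 0.347 and 0.262 in Combination, and 4.18 and 3.78 in DMSO. Per length, ORC1 RNA was thus above ORC4 RNA in ENZ, EPZ and DMSO libraries and below it in both Combination libraries. ORC3 was lower in Combination by 0.37 on the log2 scale (SE 0.13, adjusted p = 0.0281), but with 2.2 and 2.26 FPKM in Combination against 3.08 and 3.26 in DMSO it is a low gene, and the call was lost without either Combination library (adjusted p = 0.09 and 0.0714), without either DMSO library (0.0561 and 0.0985), under median-of-ratios scaling (0.123) and with no expression filter (0.154). ORC5 differed in order from most members, with 18.0 and 20.6 FPKM in ENZ, 23.8 and 25.7 in EPZ, 10.7 and 12.0 in Combination, and 27.4 and 28.5 in DMSO. ORC5 fell in ENZ (-0.51, SE 0.082, adjusted p = 5.83e-04) and did not pass the test in EPZ (-0.17, SE 0.082, adjusted p = 0.104).

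GMNN encodes geminin, the inhibitor that holds CDT1 inactive outside G1. It was at 22.8 and 23.2 FPKM in ENZ, 26.3 and 29.2 in EPZ, 4.82 and 4.5 in Combination, and 40.2 and 37.3 in DMSO. Its loss was deeper in ENZ (-0.73, SE 0.071, limma adjusted p = 3.15e-05) than in EPZ (-0.47, SE 0.071, adjusted p = 4.40e-04), the reverse of CDT1. The ratio of CDT1 to GMNN was 1.33 and 1.24 in ENZ, 0.596 and 0.55 in EPZ, 0.527 and 0.583 in Combination, and 0.97 and 1.04 in DMSO. ENZ libraries lay above DMSO in this ratio, and EPZ and Combination libraries lay below DMSO and overlapped each other. The pair was chosen after its values were seen, and the ratio was not tested.

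The 7 MCM genes all fell in EPZ and in Combination, where 32.4% and 47.4% of all tested genes were called lower. MCM2 to MCM7 encode the 6 subunits of the ring; summed, they had 437 and 418 FPKM in ENZ, 233 and 234 in EPZ, 68.7 and 64.5 in Combination, and 521 and 508 in DMSO. MCM2 was at 99.6 and 93.0 FPKM in ENZ, 49.4 and 47.8 in EPZ, 13.3 and 13.8 in Combination, and 114 and 113 in DMSO. These groups did not overlap, and MCM2 changed by -1.21 in EPZ (SE 0.056, limma adjusted p = 3.52e-07) and -2.98 in Combination (SE 0.056, adjusted p = 1.98e-10). In ENZ, MCM2 changed by -0.24 (adjusted p = 0.00523), a call that was lost after quantile normalization (log2 change 0.013, adjusted p = 0.846). MCM6 was the ring gene least lowered by Combination, at 19.8% of DMSO (34.3 and 36.1 FPKM in ENZ, 18.4 and 18.9 in EPZ, 7.18 and 6.83 in Combination, 35.7 and 35.1 in DMSO), and MCM4 the most, at 10.3%. The ring genes also came closer together: the most abundant, MCM7, exceeded the least abundant, MCM6, by 2.09-fold in Combination against 3.55-fold in DMSO. MCM8, which acts in recombination and not in the ring, had the lowest level of the 7 and fell to 2.84 and 2.6 FPKM in Combination, against 14.2 and 13.3 in DMSO (-1.98, SE 0.075, adjusted p = 6.98e-09).

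**Figure D3:**
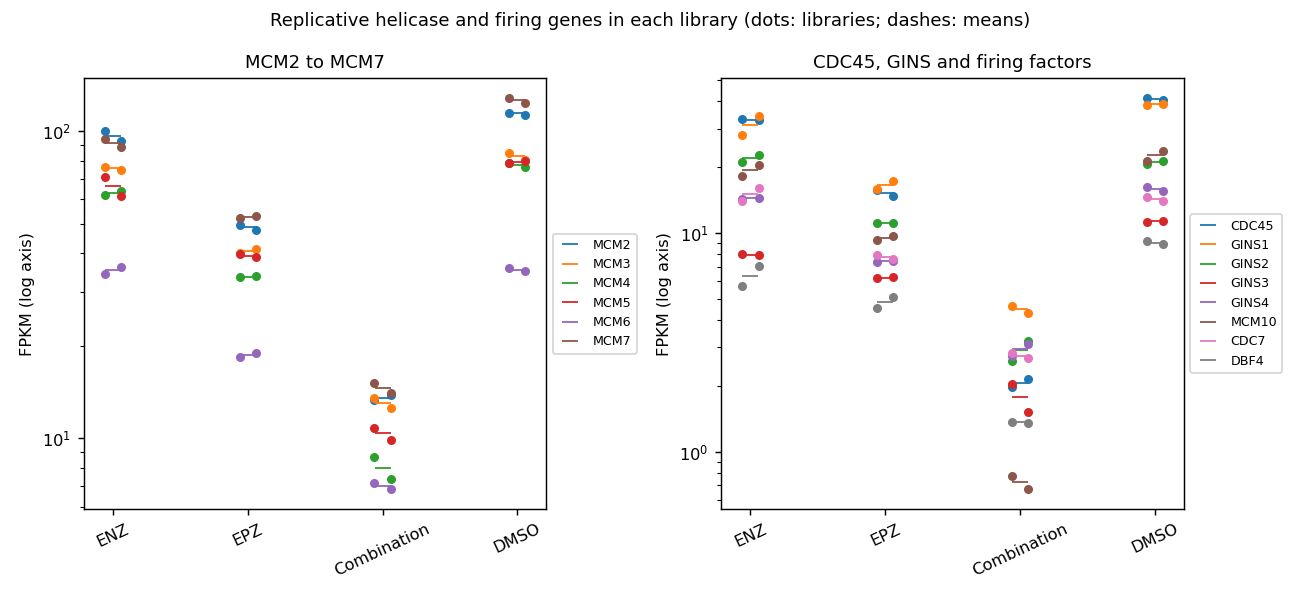
FPKM of MCM helicase and origin firing genes in each library on a log axis, with the ENZ, EPZ, Combination and DMSO groups from left to right. MCM10 drops to 0.775 and 0.672 FPKM and CDC45 to 1.98 and 2.15 FPKM in Combination, below their values in every other group (dots are libraries, dashes are means).

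Of the roles, origin firing and CMG assembly kept the least summed RNA in Combination. MCM10, which activates the assembled helicase and carries no E2F-type letters in the promoter shown, was at 18.3 and 20.4 FPKM in ENZ, 9.29 and 9.71 in EPZ, 0.775 and 0.672 in Combination, and 21.4 and 23.7 in DMSO. The groups did not overlap, and Combination stood 31.2-fold under DMSO, at 3.21% of its level. On the log2(FPKM + 1) scale that change was -3.77 (SE 0.079, limma adjusted p = 2.90e-10), and -4.78 with a pseudocount of 0.1. The value rested on an estimated 83 and 61 fragments in the Combination libraries, against 1831 and 2666 in DMSO. CDC45, a CMG subunit, was at 33.1 and 32.8 FPKM in ENZ, 15.7 and 14.7 in EPZ, 1.98 and 2.15 in Combination, and 41.4 and 40.4 in DMSO, a 19.8-fold difference between Combination and DMSO (-3.77, SE 0.062, adjusted p = 1.04e-10). The ratio of CDC45 to MCM5, both CMG subunits and chosen after their values were seen, was 0.469 and 0.533 in ENZ, 0.396 and 0.377 in EPZ, 0.182 and 0.218 in Combination, and 0.525 and 0.506 in DMSO. By transcript level, CDC45 was thus further below MCM5 in Combination than in any other group.

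The genes of the kinase that fires origins and of the GINS complex fell less in Combination than MCM10 and CDC45. DBF4, the activating subunit of the kinase, was at 5.7 and 7.06 FPKM in ENZ, 4.53 and 5.1 in EPZ, 1.37 and 1.35 in Combination, and 9.16 and 8.87 in DMSO (-2.09 in Combination, SE 0.10, limma adjusted p = 2.59e-08). Its catalytic partner CDC7 behaved otherwise with ENZ: 14.0 and 16.0 FPKM in ENZ overlapped 14.6 and 14.0 in DMSO (0.062, SE 0.075, adjusted p = 0.509), while DBF4 was lower there (-0.45, SE 0.10, adjusted p = 0.00331). In Combination CDC7 stood at 19.2% of DMSO and DBF4 at 15.0%. The 4 GINS genes together had 71.5 and 79.4 FPKM in ENZ, 40.5 and 42.1 in EPZ, 12.0 and 12.1 in Combination, and 86.5 and 87.2 in DMSO. All 4 fell in EPZ and in Combination (32.4% and 47.4% of all tested genes called lower). In Combination they kept between 11.6% (GINS1) and 18.4% (GINS4) of DMSO. GINS1 and GINS3 also fell in ENZ (28.8% of all tested genes called lower), and GINS2 and GINS4 did not pass the test.

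Polymerase and primase genes were lowered less and more unevenly than MCM helicase genes in EPZ and in Combination. With ENZ both roles had a median of -0.24. In Combination 10 of the 11 polymerase and primase genes fell (47.4% of all tested genes), with a median of -1.71. PRIM1 and POLE stood at opposite ends. PRIM1, the catalytic primase subunit, was at 23.8 and 27.4 FPKM in ENZ, 11.2 and 13.8 in EPZ, 2.41 and 2.09 in Combination, and 33.9 and 35.0 in DMSO (-3.45 in Combination, SE 0.10, limma adjusted p = 1.63e-09). The groups did not overlap, and PRIM1 kept 6.53% of its DMSO level where the partner PRIM2 kept 23.3%. POLE, the catalytic subunit of polymerase epsilon, was at 17.6 and 16.5 FPKM in ENZ, 13.2 and 12.3 in EPZ, 15.0 and 13.0 in Combination, and 14.3 and 13.9 in DMSO. Combination libraries lay on both sides of the DMSO libraries (-0.015, SE 0.078, adjusted p = 0.865). After quantile normalization POLE was called higher there (0.25, adjusted p = 0.0249). It was the 1 member that rose with ENZ (0.26, SE 0.078, adjusted p = 0.0177), a call lost without DMSO replicate 1 (0.052), DMSO replicate 2 (0.0897) or ENZ replicate 1 (0.0762).

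The other subunits of polymerase epsilon did not follow POLE. POLE2, its second subunit, was at 7.68 and 8.04 FPKM in ENZ, 3.43 and 4.03 in EPZ, 2.21 and 2.23 in Combination, and 8.43 and 8.94 in DMSO (-1.59 in Combination, SE 0.08, limma adjusted p = 4.85e-08). The ratio of POLE2 to POLE, a pair chosen after the values were seen, was 0.436 and 0.488 in ENZ, 0.261 and 0.329 in EPZ, 0.148 and 0.172 in Combination, and 0.588 and 0.645 in DMSO, with no overlap between groups. The histone-fold subunits POLE3 and POLE4 kept 29.0% and 33.7% of DMSO in Combination. POLE4 was the member most lowered by ENZ, with 51.3 and 49.1 FPKM in ENZ, 60.9 and 61.1 in EPZ, 32.3 and 31.6 in Combination, and 97.3 and 92.5 in DMSO. That loss in ENZ (-0.91, SE 0.054, adjusted p = 1.33e-06) exceeded its loss in EPZ (-0.63, SE 0.054, adjusted p = 1.33e-05). The polymerase delta genes POLD1, POLD2 and POLD3 kept 26.3%, 29.4% and 25.6% of DMSO in Combination, and 51.3%, 67.7% and 45.8% in EPZ. Of these, POLD3 had the smallest p with EPZ, at 9.78 and 10.6 FPKM in ENZ, 5.0 and 4.91 in EPZ, 2.89 and 2.66 in Combination, and 10.7 and 10.9 in DMSO (-0.99 in EPZ, SE 0.07, adjusted p = 4.87e-06). POLA1 and POLA2, the polymerase alpha subunits that work with primase, kept 27.1% and 18.6% of DMSO in Combination.

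**Figure D4:**
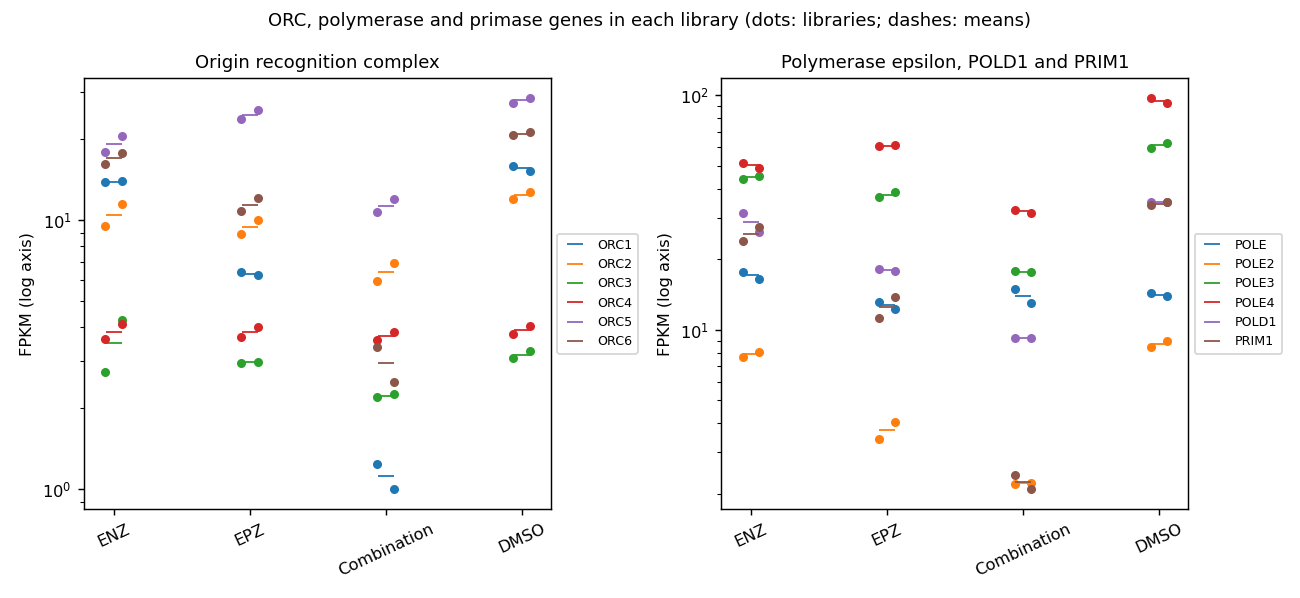
FPKM of ORC, polymerase and primase genes in each library on a log axis, with the ENZ, EPZ, Combination and DMSO groups from left to right. Dots are libraries and dashes are means; ORC4 stays within 3.58 to 4.11 FPKM, while ORC1 falls to 1.24 and 1.0 FPKM and PRIM1 to 2.41 and 2.09 FPKM in Combination.

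The clamp and all 5 clamp-loader genes fell in EPZ and in Combination. The shares of all tested genes called lower were 32.4% in EPZ, 47.4% in Combination and 28.8% in ENZ. PCNA, the clamp, was at 89.8 and 102 FPKM in ENZ, 42.0 and 46.2 in EPZ, 14.6 and 15.3 in Combination, and 107 and 105 in DMSO. The ENZ libraries lay below DMSO without passing the test (-0.15, SE 0.072, limma adjusted p = 0.105), and Combination stood 7.1-fold below DMSO (-2.75, SE 0.072, adjusted p = 7.65e-10). RFC1, the large loader subunit, lost less than the small subunits, with 23.9 and 29.1 FPKM in ENZ, 18.6 and 19.1 in EPZ, 11.0 and 11.6 in Combination, and 29.7 and 29.6 in DMSO. RFC1 thus kept 38.2% of DMSO in Combination, against 15.5% (RFC3), 20.4% (RFC4), 22.0% (RFC5) and 26.5% (RFC2). RFC3 was also the loader gene most lowered by ENZ (-0.37, SE 0.085, adjusted p = 0.00459), and of the others only RFC2 passed the test there.

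By summed FPKM, the single-strand binding genes kept the most RNA of any role in EPZ and in Combination, but not in ENZ. RPA2, the subunit phosphorylated at stressed forks, was at 28.1 and 28.3 FPKM in ENZ, 18.3 and 20.0 in EPZ, 12.5 and 12.3 in Combination, and 33.3 and 32.9 in DMSO (-1.35 in Combination, SE 0.06, limma adjusted p = 2.12e-08). RPA3, the smallest subunit, was at 13.1 and 13.2 FPKM in ENZ, 9.15 and 10.8 in EPZ, 6.51 and 6.9 in Combination, and 12.9 and 12.4 in DMSO. It was lower in EPZ (-0.32, SE 0.078, adjusted p = 0.00683) and in Combination (-0.82, SE 0.078, adjusted p = 4.77e-06). RPA1, the large DNA-binding subunit, kept 61.7% of DMSO in EPZ and 47.9% in Combination. All 3 genes were called lower in both EPZ and Combination, and with ENZ the test called RPA2 alone. The shares of all tested genes called lower were 32.4% in EPZ, 47.4% in Combination and 28.8% in ENZ.

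Among the genes that finish Okazaki fragments, FEN1 and RNASEH2A lost the most. FEN1, the flap nuclease, was at 54.3 and 54.1 FPKM in ENZ, 36.4 and 37.0 in EPZ, 7.69 and 7.19 in Combination, and 76.5 and 72.0 in DMSO (-3.16 in Combination, SE 0.058, limma adjusted p = 1.82e-10). RNASEH2A, the catalytic subunit of the nuclease that removes ribonucleotides, was at 83.3 and 78.9 FPKM in ENZ, 45.6 and 48.4 in EPZ, 14.5 and 13.5 in Combination, and 115 and 107 in DMSO. For both genes the 4 groups were fully separate. DNA2, a nuclease for long flaps, was at 7.39 and 8.57 FPKM in ENZ, 4.08 and 3.96 in EPZ, 1.76 and 1.9 in Combination, and 7.28 and 7.6 in DMSO, so ENZ and DMSO overlapped. LIG1, the ligase that seals the fragments, kept 32.3% in Combination and stood at 114% of DMSO in ENZ without passing the test (0.17, SE 0.077, adjusted p = 0.0922).

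Fork protection genes ranged widely. CLSPN encodes claspin, the adaptor that carries the ATR signal to CHK1, and was at 9.82 and 11.2 FPKM in ENZ, 5.79 and 5.97 in EPZ, 0.569 and 0.533 in Combination, and 11.7 and 12.5 in DMSO. Its Combination level, on an estimated 60 and 48 fragments, was 4.54% of DMSO (-3.08, SE 0.079, limma adjusted p = 7.11e-10, and -4.23 with a pseudocount of 0.1). WDHD1, which couples polymerase alpha to the helicase, was at 13.2 and 14.3 FPKM in ENZ, 6.09 and 6.31 in EPZ, 2.04 and 2.09 in Combination, and 15.9 and 15.9 in DMSO. TOPBP1, which activates ATR and also helps origins to fire, was at 23.5 and 26.4 FPKM in ENZ, 15.0 and 15.7 in EPZ, 9.66 and 9.89 in Combination, and 26.8 and 27.0 in DMSO. Thus TOPBP1 kept 36.4% of its DMSO level in Combination where WDHD1 kept 13.0%. TIMELESS and TIPIN, partners in 1 complex at the fork, kept 21.4% and 21.6% in Combination. They parted with ENZ, where TIPIN fell (-0.38, SE 0.065, adjusted p = 8.92e-04) and TIMELESS did not pass the test (0.10, SE 0.06, adjusted p = 0.178).

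The CAF-1 complex places new histones on copied DNA, and its subunit genes among the members, CHAF1A and CHAF1B, followed the same order of groups. CHAF1B was at 19.6 and 19.9 FPKM in ENZ, 9.94 and 10.4 in EPZ, 4.21 and 4.85 in Combination, and 23.7 and 25.5 in DMSO. CHAF1A was at 40.9 and 38.1 FPKM in ENZ, 21.0 and 20.6 in EPZ, 11.0 and 11.8 in Combination, and 41.2 and 39.4 in DMSO. CHAF1B was lower in ENZ (-0.30, SE 0.073, limma adjusted p = 0.00641), and the ENZ and DMSO values of CHAF1A overlapped. In Combination they kept 18.4% (CHAF1B) and 28.4% (CHAF1A) of DMSO.

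Set directly against each other, EPZ left most members below ENZ. Of 55 members, 48 were lower in EPZ than in ENZ (30.6% of all tested genes), 3 were higher (20.0% of all tested genes) and 4 did not pass the test, with a median of -0.79 against -0.062 for all genes. The 3 that were higher were ORC5, GMNN and POLE4, for which ENZ gave the deeper loss. Licensing genes were divided in this comparison, with 4 lower, 2 higher and 3 not called of 9, whereas all 7 MCM genes, all 8 firing genes and all 6 clamp and loader genes were lower.

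Combination was below each single agent for most members. Against ENZ, 54 of 55 members were lower (45.5% of all tested genes, with 25.3% higher), with a median of -1.93, and ORC4 did not pass the test. The POLE call (-0.27) was lost under median-of-ratios scaling (-0.092), quantile normalization (-0.031) and no expression filter. The ORC3 call (-0.46) was lost under median-of-ratios scaling (-0.32) and no expression filter. POLE was also lost without ENZ replicate 1 or Combination replicate 2, and ORC3 without ENZ replicate 2. Against EPZ, 52 were lower (43.7% of all tested genes, with 29.2% higher), with a median of -1.20, and ORC3, ORC4 and POLE did not pass. By role the difference from EPZ was deepest for the MCM family, licensing and origin firing, with medians of -1.77, -1.66 and -1.52, and least for single-strand binding, with a median of -0.50. MCM10 stood 13.1-fold, CLSPN 10.7-fold and CDC45 7.36-fold lower in Combination than in EPZ, by mean FPKM.

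The loss in Combination exceeded what the single-agent changes give when added on the log2 scale. The labels give no separate doses for Combination, so this reading takes them to equal the single-agent doses. The interaction, which takes the ENZ and EPZ changes from DMSO away from the Combination change, was called negative for 50 of 55 members and positive for none (29.6% of all tested genes negative and 9.99% positive), with a median of -0.94 against -0.12 for all genes. It was largest for MCM10 (-2.39, SE 0.11, limma adjusted p = 1.11e-06) and CDC45 (-2.10, SE 0.088, adjusted p = 8.20e-07), and it was not called for ORC2, ORC3, ORC4, POLE and POLE4. By role the medians were -1.45 for the MCM family, -1.37 for licensing and -1.32 for origin firing. They were -0.92 for the clamp and its loader, -0.60 for polymerases and primase and -0.36 for single-strand binding. The call of RPA1 was lost under median-of-ratios scaling (-0.091), under quantile normalization (-0.045) and with no expression filter. It was also lost without DMSO replicate 1 or 2, ENZ replicate 2, EPZ replicate 2 or either Combination library. The call of POLE2 was lost with no expression filter and without DMSO replicate 1 or EPZ replicate 2. On linear FPKM, 32 members stood at least 2-fold under the product of both single-agent ratios, and the median member was 2.34-fold under it. For MCM10 that product gave 8.14 FPKM, which is 11.3-fold over its Combination mean. POLE4 met the product almost exactly, with 32.2 FPKM from the product and 32.3 and 31.6 FPKM in the Combination libraries. All 55 were under the product by the deposited values, and 53 were after median-of-ratios scaling, which put ORC4 and POLE4 at or over it.

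**Figure D5:**
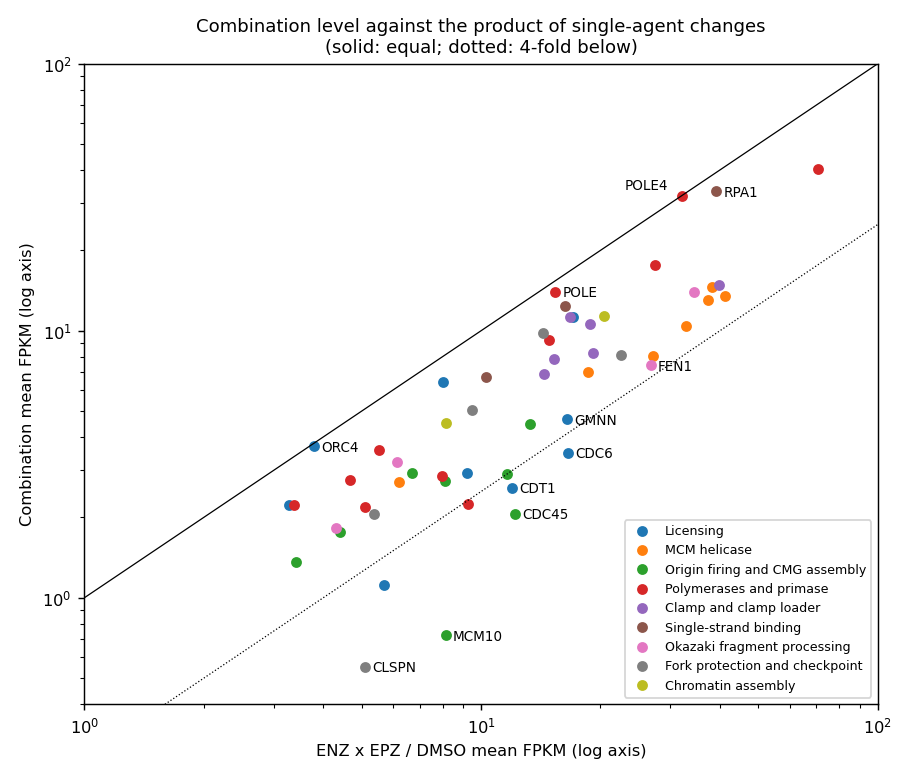
Mean FPKM in Combination (vertical axis) against the level given by the product of the ENZ and EPZ ratios to DMSO (horizontal axis) for the 55 members, on log axes with a solid line of equality and a dotted line 4-fold below it. POLE4 and ORC4 lie on the line and MCM10 lies farthest below it, 11.3-fold.

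A further 30 replication genes outside the list were examined by the same tests. In Combination 28 were lower and 2 higher than in DMSO, in EPZ 28 were lower and 1 higher, and in ENZ 8 were lower and 2 higher; 18 had a negative interaction. Over all tested genes, the shares called lower were 47.4% in Combination, 32.4% in EPZ, 28.8% in ENZ and 29.6% for the interaction, so the ENZ count of this list was near the background. Their median change in Combination was -1.0, less than that of the members. PCLAF (listed under its older symbol), the PCNA clamp-associated factor, was at 31.9 and 36.3 FPKM in ENZ, 14.1 and 16.8 in EPZ, 1.88 and 1.69 in Combination, and 36.8 and 36.0 in DMSO. ASF1B, a histone chaperone that hands histones to CAF-1, was at 58.0 and 58.3 FPKM in ENZ, 27.4 and 27.7 in EPZ, 4.61 and 4.34 in Combination, and 66.5 and 65.2 in DMSO. TOP2A, the topoisomerase that untangles copied DNA, was at 50.3 and 58.2 FPKM in ENZ, 23.5 and 23.6 in EPZ, 3.62 and 3.51 in Combination, and 51.1 and 54.9 in DMSO. For these 3 genes both Combination libraries lay below all other libraries. They were named for their small p in Combination against DMSO, so their distance from DMSO there follows from that choice.

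The 2 genes of that list that rose in Combination were POLD4 and MCM9. POLD4, the accessory subunit of polymerase delta, was at 21.3 and 20.3 FPKM in ENZ, 39.4 and 37.9 in EPZ, 33.0 and 33.1 in Combination, and 21.4 and 20.7 in DMSO, so it ran opposite to POLD1, POLD2 and POLD3 wherever EPZ was present. MCM9, the partner of MCM8 in recombination, was at 3.17 and 3.53 FPKM in ENZ, 2.42 and 2.3 in EPZ, 3.72 and 3.31 in Combination, and 2.18 and 2.08 in DMSO. MCM8 and MCM9 thus moved in opposite directions in Combination. SSRP1, a subunit of the histone chaperone FACT, was at 107 and 108 FPKM in ENZ, 86.0 and 88.8 in EPZ, 35.7 and 37.5 in Combination, and 155 and 156 in DMSO. DSCC1, of the alternative clamp loader, was at 15.2 and 18.2 FPKM in ENZ, 8.74 and 9.63 in EPZ, 2.47 and 2.42 in Combination, and 22.9 and 23.0 in DMSO. LRWD1, an ORC-associated protein gene, was at 13.0 and 12.2 FPKM in ENZ, 11.4 and 11.1 in EPZ, 8.26 and 8.26 in Combination, and 15.5 and 15.1 in DMSO. For these 3 genes all groups were separate, and ENZ alone was already below DMSO. They were named for their small p in ENZ against DMSO, so that separation of ENZ from DMSO follows from the choice.

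Markers of dividing cells moved with the members. Summed over 12 mitotic genes, FPKM were 518 and 553 in ENZ, 305 and 316 in EPZ, 51.9 and 50.9 in Combination, and 756 and 764 in DMSO, which is 70.5% of DMSO for ENZ, 40.9% for EPZ and 6.77% for Combination. All 12 fell in EPZ and in Combination and 10 fell in ENZ, and the interaction was negative for all 12. Of all tested genes, 32.4% were called lower in EPZ, 47.4% in Combination, 28.8% in ENZ and 29.6% for the interaction. MKI67, the gene of the Ki-67 proliferation marker, was at 36.0 and 38.6 FPKM in ENZ, 18.9 and 17.2 in EPZ, 2.62 and 2.22 in Combination, and 32.5 and 33.7 in DMSO. The median mitotic gene changed by -3.36 in Combination, more than the members' -2.09, and the part of this shift in the members' changes was not tested.

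Some members share sequence with other genes, and the sources used here do not say whether counting used strand. Exons of 12 members share at least 5% of their length with another annotated gene, most of all POLA2 (35.1%), RNASEH2A (30.8%), MCM2 (22.7%), GINS4 (21.2%) and TIPIN. For these genes reads from an overlapping gene could not be told apart. Named pseudogenes exist for 7 members (DBF4, POLD2, PCNA, RFC3, RFC5, RPA2 and FEN1), so their levels are uncertain to that extent.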

How the data were processed

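Values are FPKM deposited by the authors for 8 libraries of C4-2B total RNA made with a NEBNext Ultra kit, per the labels' protocols; STAR and hg38 are named in the submitters' processing notes. The sources used here do not give the counting tool, annotation or strand. Depth was estimated from steps between low FPKM values and GENCODE exon lengths.

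A linear model with all 4 groups was fitted to log2(FPKM + 1) of 11874 genes averaging at least 1 FPKM, with limma 3.58.1 in R 4.3.3 (moderated two-sided test, expression trend, 5.47 prior and 4 residual degrees of freedom). In each of 7 comparisons the Benjamini-Hochberg adjustment ran over all tested genes, with a threshold of 0.05. An exact permutation test of 2 against 2 libraries cannot go below p = 0.333, so none was used. Fold changes on this scale understate those of low genes. Fold and percent values of single genes are ratios of mean FPKM. The fit was tested on simulated data. Figures used Python 3.11.15 and matplotlib 3.10.9.

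Members, the 30 other replication genes and the 12 mitotic markers were chosen with earlier results of these data known. The genes given library by library are, in each role, those with the smallest and largest p for EPZ against DMSO, members against their role with ENZ, the 5 smallest interaction p-values, and up to 4 genes of the other list per comparison. ORC1, ORC3, ORC5, GMNN, MCM6, CDC7, PRIM1, POLE2, POLE4 and CLSPN were added after their values were seen, as were the promoters shown. Alternatives were a pseudocount of 0.1, no filter, a minimum mean of 5 FPKM, median-of-ratios and quantile scaling, only the compared groups, a replicate block, and leaving out each library.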

Additional observations from a re-analysis of the deposited data

Results flagged for a closer look

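By the interaction term of the limma fit (adjusted p under 0.05), the effect of adding 1 agent differed with the presence of the other for 50 of the 55 members. This reading takes the doses in Combination, which the labels do not give separately, to equal the single-agent doses. All 50 were negative, where 29.6% of all tested genes were called negative and 9.99% positive. The 5 members with the smallest interaction p-values were CDC45 (-2.10), CDT1 (-1.85), MCM10 (-2.39), FEN1 (-1.71) and CDC6 (-1.96), all on the log2(FPKM + 1) scale, and with a pseudocount of 0.1 they were -2.51 for CDC45, -2.18 for CDT1, -3.32 for MCM10, -1.84 for FEN1 and -2.21 for CDC6. With 2 libraries a group, no group was large enough to look for single outlying libraries.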

How the results depend on the processing

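Members called lower ranged from 11 to 31 in ENZ, 49 to 52 in EPZ, 52 to 53 in Combination, 52 to 54 for Combination against ENZ, 52 to 53 against EPZ, 45 to 49 for EPZ against ENZ and 44 to 52 for the interaction. Quantile normalization gave the 11 for ENZ, and also 2 members higher in ENZ and 1 higher in Combination (POLE). Members higher in ENZ numbered 0 without the filter and 0 to 2 with 1 library left out, those higher in EPZ than in ENZ 1 without the filter and 1 to 3 with 1 library left out, and those higher in Combination than in EPZ 1 under either scaling and 0 to 1 with 1 library left out. The cause was not tested. Median-of-ratios scaling gave a median over all genes of 0.0024 in place of -0.15 for Combination against DMSO, and a members' median of -1.94 in place of -2.09. Calls of higher genes among all calls became 51.2% in place of 35.7% for Combination against ENZ, 50.4% in place of 39.5% for EPZ against ENZ and 44.3% in place of 25.2% for the interaction. A mean of at least 5 FPKM left out ORC3 and ORC4, and only the compared groups could not be fitted for the interaction.

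Replicate numbers did not pair the libraries (r = -0.0153 to 0.109 between groups), and with the replicate block 29 members were lower in ENZ, 52 in EPZ, 53 in Combination and 51 in the interaction.

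Signs changed for the values that follow, of which POLE in Combination was called in the new direction. With 1 library left out, ENZ gave ORC3 -0.15 to 0.33, ORC4 -0.092 to 0.055, MCM6 -0.043 to 0.029, CDC7 -0.028 to 0.15, POLA2 -0.032 to 0.04, PRIM2 -0.21 to 0.033, DNA2 -0.0097 to 0.18 and CHAF1A -0.079 to 0.022. ORC4 ranged from -0.075 to 0.031 in EPZ, -0.12 to 0.028 for Combination against ENZ, -0.094 to 0.011 against EPZ, -0.077 to 0.07 for EPZ against ENZ and -0.10 to 0.05 for the interaction. ORC3 ranged from -0.40 to 0.085 for EPZ against ENZ, POLE from -0.11 to 0.081 in Combination and POLE4 from -0.042 to 0.032 for the interaction. Under median-of-ratios scaling ORC4 gave 0.021 in EPZ, 0.078 in Combination, 0.11 and 0.056 for Combination against ENZ and EPZ, 0.051 for EPZ against ENZ and 0.085 for the interaction, POLA2 -0.009 in ENZ, POLE 0.15 in Combination and POLE4 0.13 for the interaction. Under quantile normalization ENZ gave -0.091 for ORC3, 0.013 for MCM2, 0.11 for MCM3, 0.15 for MCM6, 0.10 for PCNA, 0.09 for RFC4, 0.029 for RFC5, 0.10 for RPA1 and 0.14 for CHAF1A. It also gave ORC4 0.086 for EPZ against ENZ and 0.068 for the interaction, POLE 0.25 in Combination and 0.034 for the interaction, POLE4 0.19 for the interaction and RPA1 0.051 for Combination against EPZ.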
